A study of Mus musculus with 10 samples.

Results

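AP-1 is a transcription factor made of a pair of subunits of the Fos, Jun and ATF families, which join through a leucine zipper and bind DNA through the basic stretch beside it. Fos proteins bind DNA only with a Jun partner, while Jun proteins can also pair with each other. Most of these genes are immediate-early genes, whose RNA rises within minutes of growth factors, stress or tissue dissociation and decays fast, and in bone Fosl1 and Fosl2 are known for their part in osteoblasts and bone matrix. The 8 genes described here are Fos, Fosb, Fosl1 and Fosl2, the Fos family, Jun, Junb and Jund, the Jun family, and Atf3, a stress-induced ATF subunit. They were taken from the deposited table by gene symbol alone, and all 8 were found among its 15078 genes and passed the filter for testing (a mean value of 10 or more across libraries, 13644 genes).

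RNA of sorted CD45-Ter119-CD31-CD51+CD200+ mouse cells was sequenced in 10 libraries. Graft BM-MSCs (n = 4) were Tomato+ mesenchymal stem cells from the marrow of femurs of Postn Cre-ER mice with a tdTomato reporter, collected 5 months after the femurs were placed under the skin of wild-type recipients that were given tamoxifen. BM-MSCs (n = 3) came from the marrow of wild-type mice labelled as host at steady state with no treatment, and P-SSCs (n = 3) were skeletal stem cells from such mice's periosteum, the sheet of tissue that covers a bone. By these labels graft and steady-state cells differed in genotype, tamoxifen and transplantation at once, and the effects of these cannot be told apart. Graft cells had also aged 5 months after transplantation, and whether the steady-state mice were of like age is not given. A difference in age could not be told apart from these either. Whether the mice called host carried a graft is not given in the sources used here. The Postn promoter is used by more than 1 cell type, so that Tomato marks descendants of all cells that used it while tamoxifen was present. RNA of 2 mice was combined in BM-MSC 2+4 and in P-SSC 2+5. The methods give young adult mice unless stated otherwise, which does not cover the 5 months that grafts spent in recipients. The 6 steady-state libraries also belong to another series. The comparison asks whether marrow stroma that grew from the graft resembles marrow stroma or the periosteum.

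Libraries held 15415421 to 25223295 reads, and 3 reads, taken as the smallest detectable amount, were 0.119 to 0.195 ppm of a library (counting error only). Values are read counts divided by a size factor of each library. The labelled tissues showed their markers, since the summed value of 4 marrow stroma genes (Cxcl12, Lepr, Kitl, Adipoq) was 663311 to 812775 in graft BM-MSCs and 4505 to 8842 in P-SSCs, and that of 4 periosteal genes was 230494 to 346038 in P-SSCs and 3731 to 8333 in graft BM-MSCs. Postn itself was at 0 in 3 of 4 graft libraries. Transcripts of other cells were present. Of 10 haematopoietic markers 9 were in the table, with summed values of 4986 to 85604 in graft BM-MSCs, 22406 to 53852 in BM-MSCs and 487 to 2364 in P-SSCs, where Ptprc and Mpo were at 0. Mpo was also at 0 in graft BM-MSCs. The 4 erythroid markers summed to 1226 to 23416, 48288 to 168168 and 173 to 1174. The 3 endothelial markers in the table summed to 0 in graft BM-MSCs, 24.3 to 82.5 in BM-MSCs and 3269 to 6871 in P-SSCs. In P-SSCs nearly all of this was Tek (3254 to 6869), while Cdh5 was at 2.08 to 58.6 and Emcn at 0. The 3 muscle markers in the table summed to at most 1.69, 0 and 1257. Their part in the results below was not tested. In bulk RNA, more cells that use a gene and more RNA per cell cannot be told apart.

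The 10 libraries also fell into 2 kinds by the level of GC-rich genes. The 39 genes with over 65% GC in their exons stood 1.73 to 2.90 log2 units above genes of 50% to 60% GC in the 4 graft libraries and 1.36 above in P-SSC 4, relative to each gene's mean over libraries. They stood 1.63 to 1.81 below in the 3 BM-MSC libraries, P-SSC 1 and P-SSC 2+5. All graft libraries were thus of one kind and all BM-MSC libraries of the other, so that between these groups the GC difference and the group cannot be told apart. P-SSC 4 is the only steady-state library of the first kind, and the Jun family results against P-SSCs are therefore also given without it. Without P-SSC 4, however, all P-SSC libraries are of the other kind than the graft libraries. In that fit too the GC difference and the group cannot be told apart.

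On GRCm38 the genes lie at chr12:85473890-85477273 (Fos), chr7:19302696-19310051 (Fosb), chr19:5447547-5455946 (Fosl1), chr5:32135801-32157842 (Fosl2), chr4:95049034-95052222 (Jun), chr8:84974484-84978718 (Junb), chr8:70698949-70700616 (Jund) and chr1:191170296-191218039 (Atf3). The Jun family genes differ from the other subunits in gene structure, while their exonic GC content overlaps that of the others. Jun, Junb and Jund each have 1 exon in the transcript with the longest coding sequence, and the other subunits have 4. The exons of Jund were 67.1% GC and those of Junb 62.6%, higher than 99.9% and 99.1% of the genes tested, while Jun was at 55.5%. Fos (52.0%), Fosl2 (52.1%), Atf3 (52.2%), Fosb (55.8%) and Fosl1 (57.6%) were also above the median of 49.3%. Within the coding sequence the order was Jund (70.7%), Junb (64.8%), Jun (63.2%), Fosb (62.2%), Fosl1 (62.0%), Fosl2 (61.5%), Fos (58.6%) and Atf3 (51.0%). The highest GC content over 200 bases in a row of the transcript was 82% in Jund, 74% in Jun, 71.5% in Junb and Fosl2, 70.5% in Atf3 and 66% in Fos.

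The most GC-rich 60 bases of coding sequence within 1 exon are shown for Jun and Jund, whose levels followed the GC kind of the library, and for Junb, Fos and Atf3, whose levels did not. Such stretches did not separate the subunits by this trait. Fosl1 (49 of 60 bases), Fosb (47) and Fosl2 (47), not shown, were about as GC-rich there as Jun (48). Their levels were lower in P-SSC 4 than the mean of the other P-SSC libraries. G and C are in capitals, and the sequences are from the GENCODE M21 transcripts on GRCm38, written 5′ to 3′ along the gene. They lie at chr8:70699133-70699192 on the plus strand (Jund, 53 of 60 bases G or C), chr8:84977927-84977986 on the minus strand (Junb, 49), chr4:95050685-95050744 on the minus strand (Jun, 48), chr12:85474059-85474118 on the plus strand (Fos, 44) and chr1:191171528-191171587 on the minus strand (Atf3, 40).
Jund: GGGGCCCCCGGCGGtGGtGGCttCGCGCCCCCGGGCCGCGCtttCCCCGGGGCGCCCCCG
Junb: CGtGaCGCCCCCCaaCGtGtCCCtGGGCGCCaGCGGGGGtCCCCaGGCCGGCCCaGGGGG
Jun: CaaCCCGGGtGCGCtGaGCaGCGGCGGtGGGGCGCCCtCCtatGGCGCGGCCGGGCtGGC
Fos: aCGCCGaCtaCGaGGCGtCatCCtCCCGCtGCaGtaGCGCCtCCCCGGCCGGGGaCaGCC
Atf3: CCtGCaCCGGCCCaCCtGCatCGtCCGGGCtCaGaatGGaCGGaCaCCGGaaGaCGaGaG

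Per length, Fos made up most of the AP-1 RNA in every library. In RPKM (reads scaled by exon length and library size, computed here from the recovered reads), the 8 subunits summed to 1251, 6308, 4141 and 4942 in graft BM-MSCs 1 to 4. The sums were 639, 785 and 1165 in BM-MSCs and 2990, 3685 and 3092 in P-SSCs. Graft BM-MSC 1 lay just above the highest BM-MSC library, and the other graft libraries lay above all P-SSC libraries. Fos, the main inducible partner of the Jun proteins, held 59.3% to 77.8% of the sum in every library. Junb came next in every library but P-SSC 1, with 12.1% to 21.0% of the sum, and held 8.15% in P-SSC 1, where Atf3 held 13.003%.

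**Figure D1:**
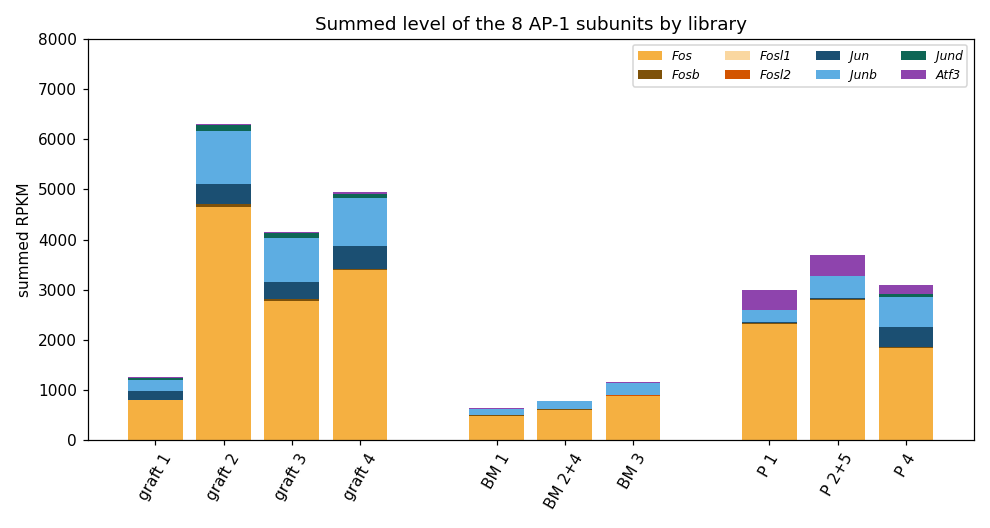
Stacked bars give the RPKM of each of the 8 AP-1 subunits in each of the 10 libraries, and the bar height is their sum. Fos is the largest part of every bar; Jun shows in the 4 graft libraries and in P-SSC 4, and Atf3 in the 3 P-SSC libraries.

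The make-up of the sum differed between groups more than its Fos share did. Jun held 6.32% to 14.0% in graft BM-MSCs, 1.17% to 1.48% in BM-MSCs, 0.367% and 0.386% in P-SSC 1 and P-SSC 2+5, and 12.9% in P-SSC 4. Atf3 held 0.206% to 0.623% in graft BM-MSCs, 1.14% to 1.65% in BM-MSCs and 5.94% to 13.003% in P-SSCs, with no overlap between any pair of groups. Mean levels in graft BM-MSCs ran from Fos (2905 ± 1604 RPKM, SD, n = 4) through Junb (775 ± 378), Jun (344 ± 123), Jund (88.5 ± 33.2), Fosb (29.3 ± 20.4) and Atf3 (18.1 ± 11.99) to Fosl2 (0.548 ± 0.294) and Fosl1 (0.431 ± 0.515). Fosb and Atf3, and Fosl2 and Fosl1, lay within their spread of each other. In BM-MSCs Atf3 (12.8 ± 6.01 RPKM, SD, n = 3) and Jun (11.8 ± 4.35) were alike in level, and Jund (0.542 ± 0.266) was near Fosl2 (0.632 ± 0.226). In P-SSCs Atf3 (328 ± 126 RPKM, SD, n = 3) came after Fos (2316 ± 476) and Junb (431 ± 181), and Atf3 and Junb lay within their spread.

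**Figure D2:**
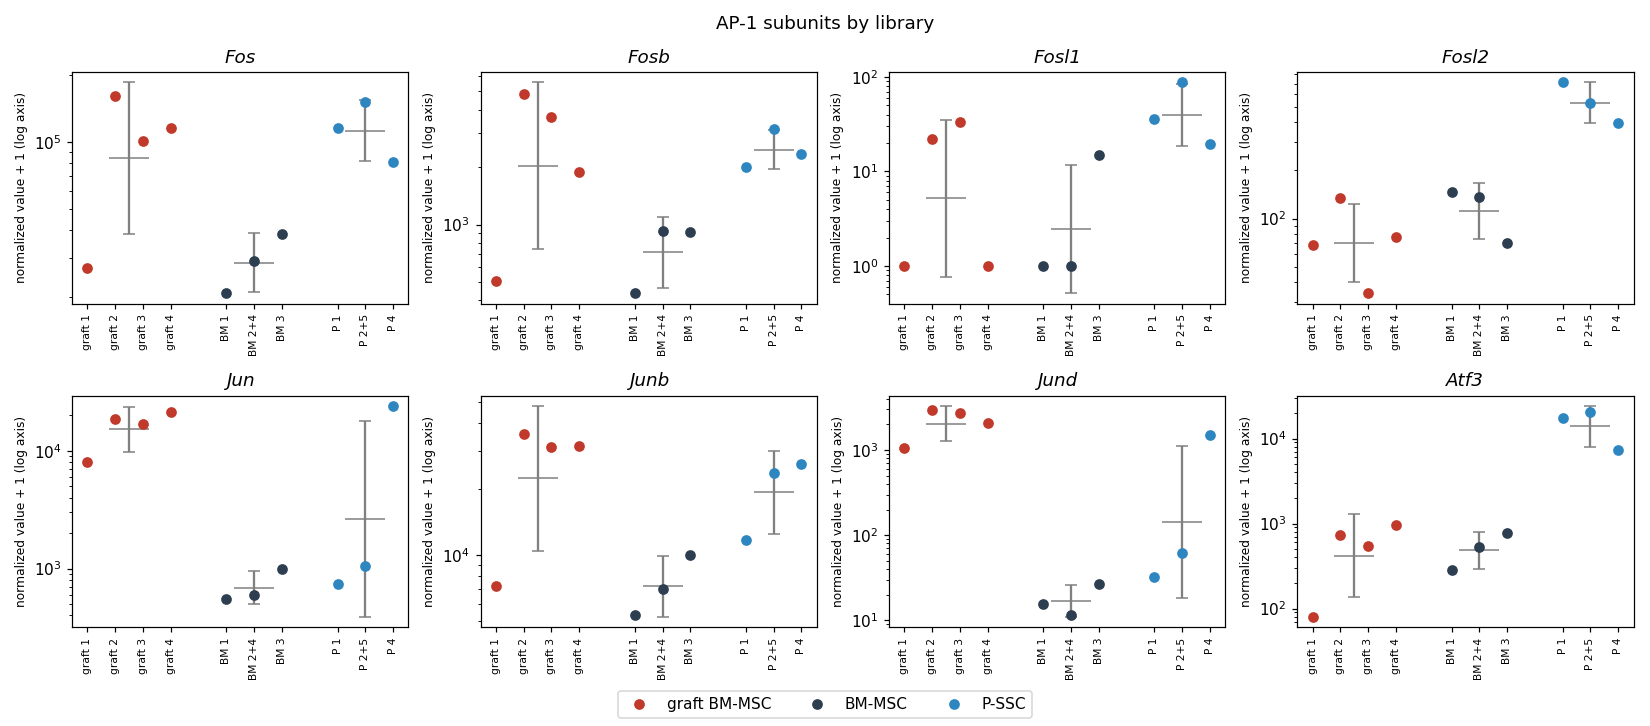
Each panel plots 1 AP-1 subunit, with the normalized value plus 1 of each of the 10 libraries on a log axis; grey bars are the mean and SD of log2(value + 1) in each group. Jun and Jund are high in the 4 graft libraries and P-SSC 4, Atf3 and Fosl2 in the 3 P-SSC libraries, and graft BM-MSC 1 is the lowest graft library for 6 of 8 subunits.

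Of the 8 subunits, Jun and Jund were higher in graft BM-MSCs than in BM-MSCs, and none was lower (limma on log2(value + 1), Benjamini-Hochberg adjusted p under 0.05 over 13644 genes). Of all genes tested 7.67% were called in this comparison in either direction, 356 higher and 690 lower. For the same 2 subunits the groups did not overlap, against 25% of all genes. The median log2 difference was 1.53 over the 8 subunits and -0.53 over all genes.

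Jun, the subunit that gave the family its name, had normalized values of 7983, 18715, 16831 and 21308 in graft BM-MSCs and 547, 600 and 994 in BM-MSCs. Every graft library lay far above every BM-MSC library. The ratio of the means was 22.7, and the log2 difference was 4.46 (SE 0.99, limma adjusted p = 0.0242). Jun was not called by edgeR on the recovered reads (adjusted p = 0.0708), nor by limma without BM-MSC 1, BM-MSC 2+4 or BM-MSC 3 (adjusted p of 0.0880, 0.0961 and 0.0715). Its antisense neighbour Junos overlaps it, and whether the counting used strand is not given in the sources used here.

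Jund, which is usually the steady subunit of the family and is less inducible than Jun and Junb, had values of 1041, 2976, 2694 and 2052 in graft BM-MSCs. It was low in BM-MSCs, at 14.6, 10.5 and 25.6. The ratio of the means was 129 and the log2 difference 6.91 (SE 1.145, limma adjusted p = 0.00655), which put it higher than 99.96% of the genes tested. Part of its exon is shared with an antisense gene, Gm11175.

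Junb, an early-response subunit that can oppose Jun at some promoters, had 7203, 35906, 31102 and 31552 in graft BM-MSCs and 5303, 7020 and 10032 in BM-MSCs. Only graft BM-MSC 1 fell within the BM-MSC range. The log2 difference of 1.64 (95% interval 0.45 to 2.83) did not pass (limma adjusted p = 0.0936), and Junb overlaps Prdx2 on the opposite strand.

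The Fos family did not pass in this comparison. Fos, the inducible partner, had 26928, 161157, 101196 and 115274 in graft BM-MSCs against 20847, 29184 and 38402 in BM-MSCs, and again graft BM-MSC 1 alone fell within the BM-MSC range. Its log2 difference was 1.56 (95% interval 0.40 to 2.72, limma adjusted p = 0.09999). Fosb, a close relative of Fos, had 505, 4851, 3666 and 1878 against 437, 920 and 916, with a log2 difference of 1.499 (95% interval 0.01 to 2.99, limma adjusted p = 0.194). Fosl1 (0, 21.1, 32.2 and 0 against 0, 0 and 13.8) and Fosl2 (67.8, 133, 33.2 and 76.0 against 145, 135 and 69.0) were low in all 7 marrow libraries, and their groups overlapped. Atf3, which mostly represses as a homodimer, had 79.1, 734, 538 and 958 against 283, 525 and 764. Its log2 difference was -0.22 (95% interval -1.96 to 1.53, limma adjusted p = 0.895).

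Graft BM-MSC 1 decided several of these results. It was the lowest graft library for 6 of the 8 subunits, all but Fosl1, where it shared 0 with graft BM-MSC 4, and Fosl2. It was the lowest graft library for 12 of 17 other immediate-early genes and for 14.2% of all genes tested. The mean of the other graft libraries was 9.40 times its value for Atf3, 6.86 times for Fosb, 4.67 times for Fos, 4.56 times for Junb, 2.47 times for Jund and 2.37 times for Jun. Without it, 5 subunits were higher in graft BM-MSCs than in BM-MSCs, with log2 differences of 2.11 for Fos, 2.17 for Fosb, 4.77 for Jun, 2.19 for Junb and 7.24 for Jund. Over all genes 909 of 13634 were called in that fit, 220 of them higher.

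**Figure D3:**
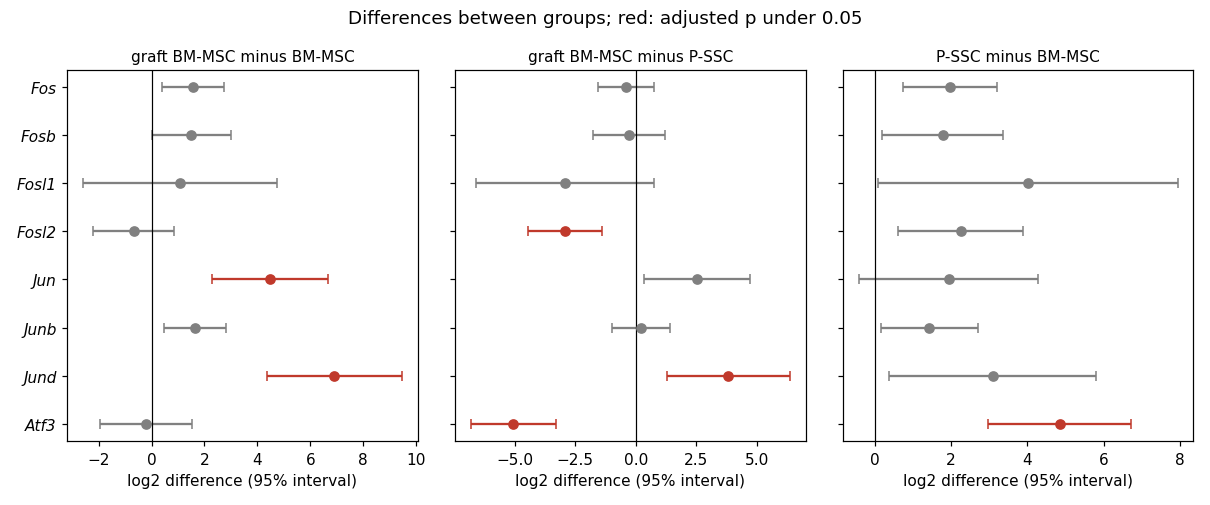
Points are the log2 differences of the 8 subunits in each of the 3 comparisons, bars are 95% intervals from limma, and red marks an adjusted p under 0.05. Jun and Jund lie right of 0 in the left panel, and Atf3 lies left of 0 against P-SSCs and right of 0 in P-SSCs against BM-MSCs.

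Against P-SSCs, Atf3 and Fosl2 were lower in graft BM-MSCs and Jund was higher, 3 of 8 subunits, while 18.1% of all genes were called. Atf3 and Fosl2 did not overlap between the groups, 2 of 8 subunits against 26.6% of all genes. The median log2 difference was -0.34 over the subunits and -0.47 over all genes. This comparison shares its graft libraries with the one above, and its P-SSC libraries with the one below.

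Atf3 had 17579, 20556 and 7416 in P-SSCs 1, 2+5 and 4, and no marrow library of either group exceeded 958. The P-SSC mean was 26.3 times the graft mean and the log2 difference -5.06 (SE 0.79, limma adjusted p = 0.00131). Fosl2, which acts in osteoblast and chondrocyte differentiation, had 710, 531 and 396 in P-SSCs. All 4 graft libraries were at or under 133. The P-SSC mean was 7.04 times the graft mean, with a log2 difference of -2.92 (SE 0.69, limma adjusted p = 0.0146). Fosl2 was not called without P-SSC 1 (limma adjusted p = 0.0931), without P-SSC 2+5 (0.0631) or with a correction for GC content (-2.07, 0.102), and neither it nor Atf3 was called with library kind as a covariate (0.186 and 0.0774).

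Jund had 31.2, 61.1 and 1480 in P-SSCs, so that P-SSC 4 lay inside the graft range and the other P-SSC libraries far below it. The log2 difference was 3.83 (SE 1.145, limma adjusted p = 0.0423). Without P-SSC 4, a fit in which group and library kind coincide, it was 5.51 (SE 0.69, limma adjusted p = 0.000701). It was no longer called in 19 of 27 alternative analyses. With only the libraries in which GC-rich genes were high, the 4 graft libraries and P-SSC 4, the difference was 0.46 (SE 0.68, with the lone P-SSC library assumed to vary like the graft libraries).

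Jun had 735, 1050 and 23884 in P-SSCs, and P-SSC 4 was above all graft libraries. Its log2 difference of 2.52 (95% interval 0.33 to 4.72) did not pass (limma adjusted p = 0.104). With the correction for exonic GC content it was 3.50 (SE 0.90) and passed (limma adjusted p = 0.0188). Without P-SSC 4 it was 4.11 (limma adjusted p = 0.000246), again with group and library kind coinciding. Against P-SSC 4 alone, of the same kind as the graft libraries, it was -0.65 (SE 0.64). The difference for Jun was thus positive with P-SSC 4 and without it, and smaller with it. Against P-SSC 4 alone it was about as large as its SE.

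Fos (114838, 151803 and 80967 in P-SSCs), Fosb (1996, 3177 and 2341) and Junb (11772, 23685 and 26092) overlapped the graft libraries. Their log2 differences were -0.41 (95% interval -1.57 to 0.75), -0.28 (-1.77 to 1.21) and 0.21 (-0.97 to 1.399), and none passed. Without P-SSC 4 the difference of Junb was 0.43. Fosl1, known for bone matrix formation, had 35.3, 86.6 and 18.4 in P-SSCs, and its difference of -2.93 (95% interval -6.59 to 0.74) did not pass.

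At steady state, Atf3 was the 1 subunit called between P-SSCs and BM-MSCs, and it was higher in P-SSCs, while 9.15% of all genes were called in either direction. The P-SSC mean of Atf3 was 29.0 times that of BM-MSCs, with a log2 difference of 4.84 (SE 0.84, limma adjusted p = 0.00375). In the libraries in which GC-rich genes were low, which leave out P-SSC 4, its difference was 5.29 (SE 0.45, limma adjusted p = 0.00391).

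All 8 subunits had a positive difference, with a median of 2.11 against 0.00 over all genes. For 7 of 8, all but Jun, every P-SSC library was above every BM-MSC library, against 30.9% of all genes without overlap. For Fosl1 and Jund this separation was narrow. The lowest P-SSC library had 19 reads of Fosl1 and 30 of Jund, and the highest BM-MSC library 14 and 26. The mean of Fosl1 over all libraries, on which the filter acts, was 20.7 and rested mainly on P-SSCs (mean 46.8). Its place in both counts is thus partly set by the filter. Fos, at 80967 to 151803 against 20847 to 38402, had a log2 difference of 1.97 (95% interval 0.73 to 3.21, limma adjusted p = 0.0544). Fosl2 had 2.25 (95% interval 0.61 to 3.89, limma adjusted p = 0.0971), with a ratio of means of 4.69. Fosb (1.78), Fosl1 (4.01), Junb (1.43), Jund (3.09) and Jun (1.94) had adjusted p values of 0.184 to 0.409 in limma. Without P-SSC 4 the differences were 1.41 for Jund, 1.21 for Junb and 0.35 for Jun. Among the libraries in which GC-rich genes were low, 3 subunits were called, Atf3, Fos (2.21, limma adjusted p = 0.0190) and Fosl2 (2.46, limma adjusted p = 0.0291), and Jun differed by 0.35 (SE 0.34). Over all genes 2040 of 13644 were called in that fit. Marrow and periosteum were also taken out and digested differently before sorting, which cannot be told apart from the tissue.

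P-SSC 4 was set beside the other P-SSC libraries for each subunit, as a description of single libraries. Jun was 26.8 times and Jund 32.1 times the mean of P-SSC 1 and P-SSC 2+5, log2 differences of 4.76 and 5.05, higher than 97.3% and 98.0% of the genes tested. Junb, with the second highest GC content, was 1.47 times that mean. The others were lower in P-SSC 4, at 0.905 times for Fosb, 0.639 for Fosl2, 0.607 for Fos, 0.389 for Atf3 and 0.302 for Fosl1. The graft mean was 0.679 times P-SSC 4 for Jun, 1.48 times for Jund and 1.01 times for Junb. Atf3 and Fosl2 remained higher in P-SSC 4 than the graft mean, by 12.8 and 5.11 times.

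GC content over a short stretch went with the same contrast among all genes. Among them the median log2 difference of P-SSC 4 from the mean of P-SSC 1 and 2+5 was -0.34 for the 2524 genes whose highest GC content over 200 bases was under 60%. It was -0.29 at 65% to 70%, 0.45 at 70% to 75%, 2.24 at 75% to 80% and 2.28 above. Jun (74%) at 4.76 was above the upper quartile of its class, 1.73, and Jund (82%) at 5.05 above that of its class, 3.42. Junb (71.5%) at 0.64 was near the median of its class. For graft BM-MSCs against BM-MSCs, 12.9% of the 1096 genes above 80% were called higher, against 0.524% of the 3052 genes at 65% to 70%. With a correction of each library for exonic GC content, the difference between graft BM-MSCs and BM-MSCs was 5.39 for Jun and 4.57 for Jund, and both were called (limma adjusted p = 0.00578 and 0.00551). With library kind as a covariate it was -0.30 (SE 0.70) for Jun and 1.86 (SE 1.08) for Jund, and neither was called. Since all graft libraries are of one kind and all BM-MSC libraries of the other, that covariate rests on P-SSC 4 against P-SSC 1 and P-SSC 2+5 alone, so these values are the group differences less the P-SSC 4 contrast given above. Over all genes 40 were called in that fit, against 1046 without the covariate. These 2 adjustments for GC content thus gave different answers for Jun and Jund. Among genes with 55% to 60% GC in their exons, the class of Jun, the median difference of P-SSC 4 was 0.08. For a further correction, for GC content over 200 bases, only counts of calls and reversed signs are given below, without the values of Jun and Jund.

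**Figure D4:**
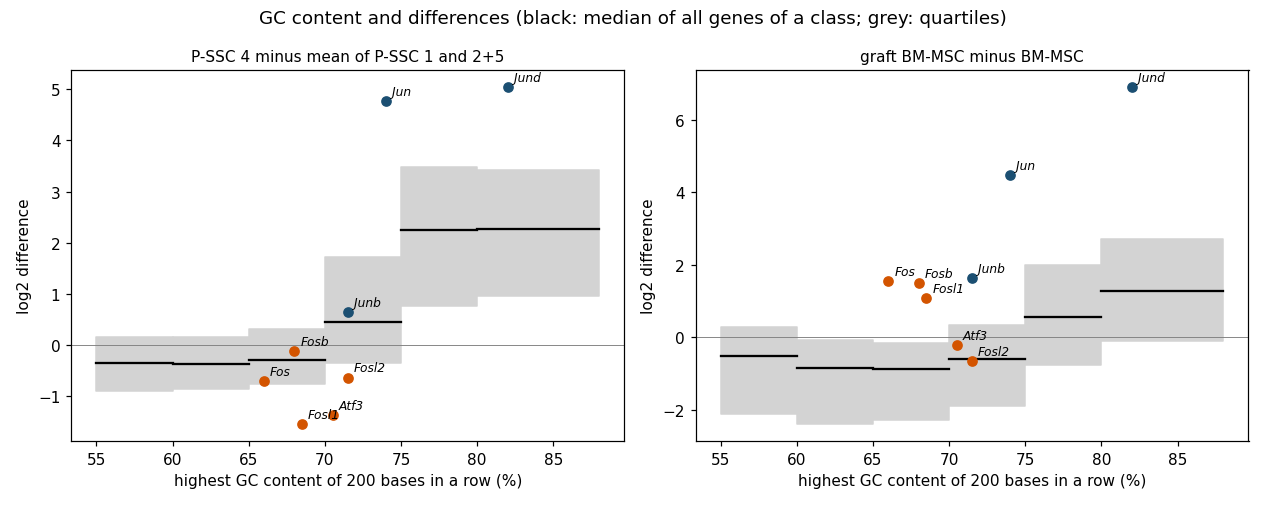
The x axis is the highest GC content over 200 bases in a row of a gene's transcript, and the y axis is the log2 difference of P-SSC 4 from the other P-SSC libraries (left) and of graft BM-MSCs from BM-MSCs (right). Black lines and grey boxes are the median and quartiles of all genes of a GC class, points are the 8 AP-1 subunits (Jun family in blue). Jun and Jund lie above the quartiles of their class in both panels, and Junb lies inside them on the left.

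The likeness of the subunits over the 10 libraries was described by Pearson's r of log2(value + 1) over libraries that share the size-factor scale. Jun and Jund had an r of 0.984. Both followed the GC kind of the library, and what this kind adds to their r with each other or with other genes cannot be told apart. Fos had 0.944 with Fosb and 0.896 with Junb, and Fosb had 0.917 with Junb. Fosl2 and Atf3 had 0.834, and Fosl2 and Jun -0.35. These were not separate sets, since Junb had 0.734 with Jun and 0.742 with Jund, Atf3 had 0.655 with Fos, and Fosl1 had 0.711 with Fos, 0.751 with Fosb and 0.721 with Atf3. The genes most like Jun were Cebpd (0.994), Dag1 and 0610012G03Rik, and those most like Jund were Ier5 (0.993), Dusp1 and Pnrc1. Fos was most like Zfp36 (0.965), a decay factor for AU-rich RNA, then Fosb and Ier3. Fosb was nearest to Fos, Junb and Zfp36, and Junb to Tbx3 (0.966), Fosb and Slc35g1. Fosl1 was nearest to Trim45 (0.934), Dhrs9 and Csrnp1, Fosl2 to Col18a1 (0.976), Sfxn3 and Thbs2, and Atf3 to Prnp (0.959), Pla1a and Axl.

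Genes that work with AP-1 were counted from lists of its partners, activators, inhibitors and targets. Beside them, 7.67% of all genes tested were called between graft BM-MSCs and BM-MSCs in either direction. The share was 18.1% between graft BM-MSCs and P-SSCs and 9.15% between P-SSCs and BM-MSCs. Of 17 other bZIP partners, 4 differed between graft BM-MSCs and BM-MSCs, 2 in each direction. Jdp2, which pairs with Jun and represses AP-1, rose from 83.3 to 1101 in group mean (log2 difference 4.08, limma adjusted p = 0.0239), and Ddit3 fell from 695 to 255. In P-SSCs 1, 2+5 and 4 Jdp2 had 69.6, 58.6 and 486. P-SSC 4 was thus far above the other P-SSC libraries, as for Jun and Jund, though below all graft libraries. Against P-SSCs, 2 were higher and 3 lower, with Nfe2l2, the regulator of antioxidant genes, at 1365 against 6467. Between P-SSCs and BM-MSCs 2 were higher, Atf4 (4067 against 1868) and Nfe2l2 (6467 against 2884).

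Of 24 MAP kinases and SRF or ETS activators, graft BM-MSCs had 2 higher and 2 lower than BM-MSCs, 1 higher and 2 lower than P-SSCs, and none was called between P-SSCs and BM-MSCs by limma (0 at an unadjusted p under 0.05, and 0 by edgeR and by DESeq2). Of all genes tested, 7.67%, 18.1% and 9.15% were called in these comparisons, in that order. Mrtfa, a coactivator of SRF, had a mean of 52.4 in graft BM-MSCs against 604 in BM-MSCs and 549 in P-SSCs. Of 9 dual-specificity phosphatases, which switch off MAP kinases, only Dusp1 was called between graft BM-MSCs and BM-MSCs, and it was higher. Against P-SSCs 2 were higher and 2 lower, and between P-SSCs and BM-MSCs limma and edgeR called 0 (3 at an unadjusted p under 0.05) and DESeq2 called 1. Dusp1 had 8026, 41686, 33156 and 30586 in graft BM-MSCs, 447, 426 and 406 in BM-MSCs and 784, 1113 and 20380 in P-SSCs. P-SSC 4 was thus again with the graft libraries, as it was for Jun and Jund.

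Among 17 other immediate-early genes, graft BM-MSCs had 6 higher and 0 lower than BM-MSCs, and 13 had an unadjusted p under 0.05. Of all genes tested 2.61% were higher, and 3474 of 13644 had an unadjusted p under 0.05. Egr1, a zinc-finger factor induced with Fos, had 15279, 72136, 59784 and 61449 in graft BM-MSCs and 878, 1083 and 1286 in BM-MSCs, with a log2 difference of 5.39 (limma adjusted p = 0.00401). In P-SSCs it had 4233, 3222 and 36250. Against P-SSCs there were 2 higher and 2 lower, with Klf4 at 164 against 1965. Between P-SSCs and BM-MSCs 3 were higher, Klf4 (1965 against 45.9), Ier3 (6729 against 619) and Nr4a1 (10492 against 1870). Of all genes tested, 18.1% and 9.15% were called in these comparisons, in that order.

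Known AP-1 target genes were counted with both tissues' own programs among them. Of 16 tested, graft BM-MSCs had 1 higher and 1 lower than BM-MSCs, Il6 (412 against 26.7) and Spp1 (136829 against 286884). Against P-SSCs 4 were higher and 2 lower, with Mmp13, a collagenase, at 8868 against 428 (log2 difference 4.42) and Spp1, osteopontin, at 136829 against 16308. Between P-SSCs and BM-MSCs 3 were higher and 3 lower. The lower ones were Spp1 (16308 against 286884), Mmp13 (428 against 23550) and Mmp9 (1.94 against 2691), and the higher ones, named after their values were seen, were Il6 (1586 against 26.7), Plau and Mmp3. Of all genes tested, 7.67%, 18.1% and 9.15% were called in these comparisons, in the order given. The called targets did not all move in 1 direction in any comparison. Between the marrow groups this rests on 1 target higher and 1 lower.

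Promoter sequence was available in RefSeq (GRCm38.p6) for 7 of the 8 genes, without Fosl1. The 150 bases before the start are shown for Fos, Jun and Junb, the subunits with the highest levels per length in graft BM-MSCs, with matches to the CCAAT box, the TATA box (TATAAA) and the site TGACATCA in capitals. They lie at chr12:85473740-85473889 on the plus strand (Fos), chr4:95052223-95052372 on the minus strand (Jun) and chr8:84978749-84978898 on the minus strand (Junb).
Fos: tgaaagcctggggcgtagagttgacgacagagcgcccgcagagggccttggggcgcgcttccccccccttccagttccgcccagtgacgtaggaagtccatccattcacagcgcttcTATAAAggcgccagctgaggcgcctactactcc
Jun: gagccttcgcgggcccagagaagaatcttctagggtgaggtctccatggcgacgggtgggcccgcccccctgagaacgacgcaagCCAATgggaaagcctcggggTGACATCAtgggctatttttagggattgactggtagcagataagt
Junb: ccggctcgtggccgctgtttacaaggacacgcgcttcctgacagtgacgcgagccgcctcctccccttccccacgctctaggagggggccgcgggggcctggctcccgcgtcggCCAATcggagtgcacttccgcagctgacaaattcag

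Over 250 bases before the start and on both strands, TGACATCA, a site like the AP-1 site, was found in Jun (positions -45 to -38) and in 2.93% of 32851 promoters. The AP-1 site TGANTCA (6.75% of promoters), the cAMP site TGACGTCA (1.55%) and the CArG box (1.47%) were found in none of the 7 promoters. TATAAA was found in Fos (12.4% of promoters), CCAAT in Jun and Junb (33.9%), and GGGCGG in Fos, Fosb, Fosl2, Jun and Atf3 (32.7%). The GC content of these 250 bases was 47.6% for Jund, whose RefSeq start lies upstream of the GENCODE start used for its exons, and 58.4% to 68.8% for the other members, against a median of 52.4%. A match is a match of letters only, and sites that differ from these patterns or lie farther upstream were not counted.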

How the data were processed

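RNA from sorted cells of 3 groups was sequenced in 10 libraries. The authors mapped reads with STAR and analysed counts with DESeq2. The methods name GRCm38 and the submitters' processing notes GRCm39, with cutadapt 1.15, STAR 2.5 and Subread 1.4.6, and the strand setting and annotation are not given in the sources used here. Each deposited value is a signal, a gene's reads in 1 library divided by that library's size factor. Values were whole multiples of 1 step in 100% of cases (tolerance 0.01 reads), which gave back the reads. Positions and GC content came from GENCODE M21 by Ensembl ID (15052 of 15078 found).

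Values were analysed as log2(value + 1), which understates changes of low genes, in genes with a mean of at least 10. limma 3.58.1 (R 4.3.3) fitted 1 mean per group to all 10 libraries (7 residual degrees of freedom, trend in the variance, two-sided, Benjamini-Hochberg over all genes tested, threshold 0.05). edgeR 4.0.16 and DESeq2 1.42.0 were run on the recovered reads as alternatives. The methods state that the RNA of each replicate came from distinct mice. The p-values measure the spread between these samples. No 2 libraries of a group agreed within sampling noise. The fit was tested on simulated data.

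The members and lists were chosen with earlier results of these data known. Named were all members, at most 3 called genes of each list and comparison with the lowest adjusted p, the 3 genes most like each member, and markers, apart from genes that are not reported here. Dusp1, Egr1, Il6, Mmp13, Spp1, Klf4 and the other genes of lists are among these. Alternatives fixed at the start were other pseudocounts and filters, median centring, quantile normalization, a GC correction (loess, span 0.3), a covariate for library kind, fits of 2 groups, a replicate block, no variance trend, a stricter threshold and leaving out each library. Fits within each library kind and a correction for GC content over 200 bases were chosen after seeing the data.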

Additional observations from a re-analysis of the deposited data

Results flagged for a closer look

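Among the 4 graft BM-MSC libraries, Junb was at 7203 in graft BM-MSC 1 and at 31102 to 35906 in the others. The gap to the nearest library was 0.833 of the range, above Dixon's 95% critical value of 0.829 for 4 samples. Chance marks about 1 in 20 groups, and 8 subunits were examined, of which the other 7 stayed below that value.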

How the results depend on the processing

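The count of subunits called was 2 for graft BM-MSCs against BM-MSCs, 3 against P-SSCs and 1 for P-SSCs against BM-MSCs. For graft BM-MSCs against BM-MSCs it became 4 with quantile normalization, 5 with DESeq2 or the correction for GC content over 200 bases, 1 with edgeR, without the variance trend or at an adjusted p under 0.01, and 0 with the library kind as a covariate; over all genes, 1046 calls became 1023, 1947, 1387, 316, 733, 305 and 40 in these fits. With the GC correction it was 3 (Fos was gained, adjusted p = 0.0351). Against P-SSCs it became 1 at an adjusted p under 0.01 and 0 with the covariate or with only the libraries in which GC-rich genes were high, where P-SSC 4 stands alone; over all genes, 2464 calls became 1332, 1081 and 1194. edgeR and DESeq2 called 2, Fosl2 and Atf3, and the GC correction 3, with Jun gained and Fosl2 lost. For P-SSCs against BM-MSCs it became 2 with a pseudocount of 5, quantile normalization or no variance trend, 4 in a fit of those groups alone, 5 with DESeq2 and 3 with only the libraries in which GC-rich genes were low; over all genes, 1248 calls became 1366, 1533, 1123, 1852, 1515 and 2040. Leaving out 1 library gave 1 to 5, 1 to 4 and 1 to 4; the counts of 5 and, for P-SSCs against BM-MSCs, 4 came without graft BM-MSC 1, and Jun was not called against BM-MSCs without any 1 of the BM-MSC libraries. Except where the construction shows it (fewer libraries), the cause was not tested.

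Libraries of different groups with the same replicate number in their titles had correlations of -0.02 to 0.03 in their deviations from group means. There are few such pairs, so this does not settle whether equal numbers mark shared mice or a shared batch. With the replicate block 0 subunits were called in each comparison, also with the GC correction, with 2 residual degrees of freedom. Over all genes the block left 3, 269 and 54 calls (1, 370 and 70 with the GC correction), so 0 of 8 says little about the subunits. Under the block Junb against P-SSCs was -0.091 (-0.15 with the GC correction), and Atf3 against BM-MSCs was 0.23 with both.

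Other reversals of sign were of differences that were not called, apart from Jun. With the covariate, Jun was -0.30 against BM-MSCs and -0.65 against P-SSCs, Atf3 1.14 against BM-MSCs, Fos 0.059 and Junb -0.22 against P-SSCs. With only the libraries in which GC-rich genes were high, Jun was -0.65, Fos 0.059 and Junb -0.22 against P-SSCs. In the comparison of both marrow groups, Fosl2 became 0.21 and Atf3 0.66 with the GC correction, Fosl2 0.32 and Atf3 0.92 with that for 200 bases, and Atf3 0.13 with edgeR and with DESeq2. Against P-SSCs, quantile normalization gave Fos 0.29 and Fosb 0.0061, the GC correction Fos 0.44 and Fosb 0.70, that for 200 bases Fos 0.92 and Fosb 1.06, edgeR Fosb 0.20 and DESeq2 Fosb 0.11. Leaving out 1 library gave Atf3 -0.62 to 0.58 against BM-MSCs, and against P-SSCs Fos -0.72 to 0.14, Fosb -0.70 to 0.39 and Junb -0.15 to 0.76. Scalings moved the median of all genes for graft BM-MSCs against BM-MSCs from -0.53 to -0.17 (quantile) and 0.24 (GC correction), and the share of calls that were higher from 34.0% to 57.5% and 71.7%. Fosl1 rests on few reads.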
